A study of Eriocheir sinensis with 6 samples.

Results

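The gene evm.TU.CM024146.1.116, named GRM7 by the study, is annotated as a metabotropic glutamate receptor of the Chinese mitten crab, Eriocheir sinensis. It lies on the minus strand of sequence CM024146.1 from 5155732 to 5223447 in the crab genome whose sequences begin with CM, spans 67716 bp and has 31 exons. Every merged peak that the authors' annotation links to this gene ID was taken, which gave 9 of 104657 merged peaks. Of these, 5 lie in introns of the gene, 2 in exons and 2 in intergenic DNA upstream of it. The peak table pairs the gene with an ID only, and the name comes from the study.

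Metabotropic glutamate receptors are class C G protein-coupled receptors that bind glutamate through a large extracellular domain. In mammals, the receptor GRM7 sits at presynaptic terminals, couples to inhibitory G proteins and lowers transmitter release. Glutamate is the excitatory transmitter at the neuromuscular junctions of arthropods of muscle. In Drosophila, a receptor of this family acts in the motor axon terminals at that junction. No role of the crab gene was measured here.

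ATAC-seq, which marks accessible DNA by the cuts of the Tn5 transposase, was run on nuclei of muscle from juvenile crabs. There were 3 libraries at the pre-molt stage, before the old shell is shed, and 3 at the post-molt stage, after it. The crabs had no treatment other than their stage, came from a farm, and each library was made from a single crab. The comparison asks how the accessibility of this receptor gene differed between the stages, and every change is post-molt over pre-molt. The tissue was not separated by cell type, so more cells with an open locus and a more open locus per cell cannot be told apart. The tissue label was not checked against marker genes, since the sources used here name few genes.

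The libraries held 41050903 to 51652893 reads, of which 23.8% to 36.7% lay in merged peaks. The highest share was that of pre-molt replicate 2. Accessibility is given as CPM, the read count of a peak scaled to library size, with the SD over 3 libraries. A peak was called higher or lower at an edgeR quasi-likelihood adjusted p (Benjamini-Hochberg over all merged peaks) below 0.05. The GRM7 peaks were weak: they were 200 to 458 bp wide, and their mean counts of 24.0 to 75.3 reads lay between the 13.4 and 63.6 percentiles of all merged peaks.

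Of the 9 linked peaks, 6 were called higher post-molt, 0 lower and 3 did not pass. All 9 had a positive log2 change, with a median of 1.93, against -0.03 over all merged peaks. Without post-molt replicate 2 the count of calls was 3. Over all merged peaks 9.95% were called, 6.08% higher and 3.86% lower. Accessibility was above every pre-molt library in all 3 post-molt libraries at 8 of the 9 peaks, an arrangement found in 15.0% of all merged peaks, and the opposite one in 12.1%. Among peaks of the same class, 8.75% of intron peaks, 4.67% of exon peaks and 5.65% of distal peaks were called higher. These are not the closest comparison, since 8 of the 9 peaks entered the table through post-molt libraries only, as described below. Of all merged peaks of that kind, 19.0% were called higher and 39.9% had the same arrangement of libraries. Their median log2 change was 0.83.

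**Figure D1:**
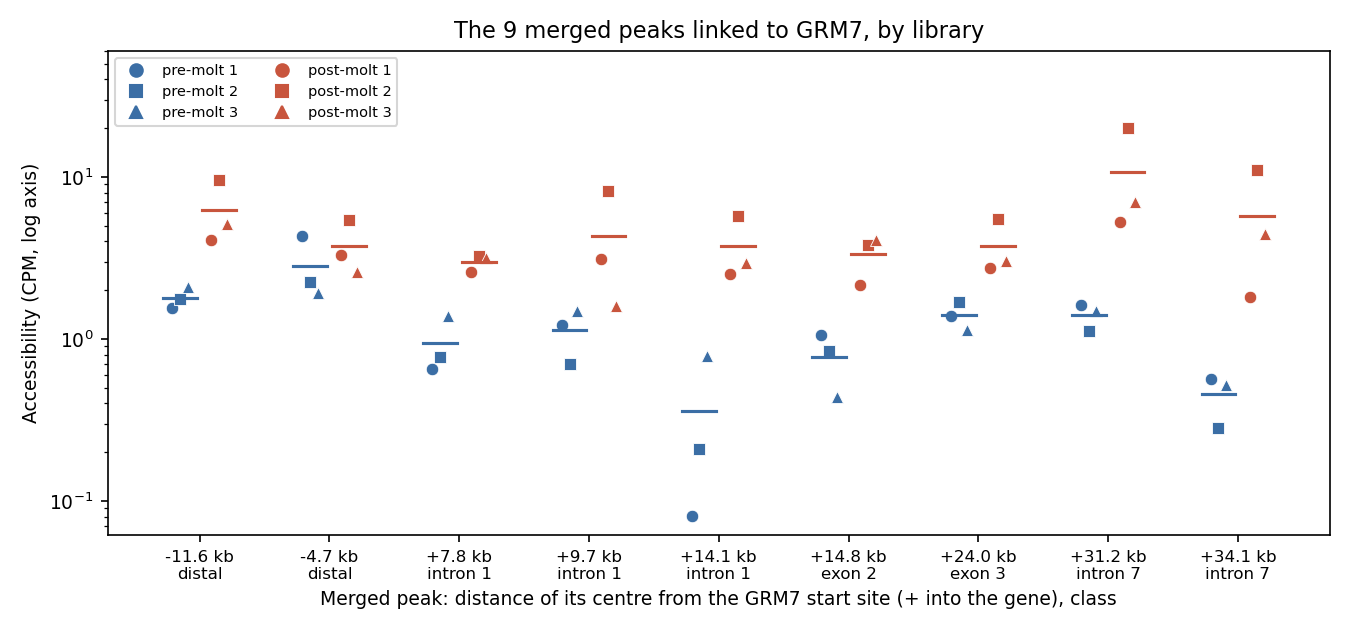
CPM (log axis) of each library at the 9 merged peaks linked to GRM7, in order from upstream of the start site into the gene. Each symbol is 1 library (blue pre-molt, red post-molt) and each bar is the mean of 3; post-molt libraries sit above pre-molt libraries at 8 peaks and overlap them at the peak 4.66 kb upstream.

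Upstream of the gene, the farther of the intergenic peaks rose and the nearer did not pass. The peak 11.6 kb upstream (5234883 to 5235215) held 19, 25 and 24 reads pre-molt and 47, 121 and 61 reads post-molt, here and below in the order of replicates 1, 2 and 3. The stages did not overlap, and post-molt replicate 2 stood well above the other libraries. It rose from 1.79 ± 0.276 to 6.23 ± 2.92 CPM (log2 change 1.79, SE 0.41, adjusted p = 0.00782 in edgeR), but without post-molt replicate 2 the adjusted p was 0.1 at a log2 change of 1.35.

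The peak 4.66 kb upstream (5227891 to 5228332) held 53, 32 and 22 reads pre-molt and 38, 69 and 31 reads post-molt. The stages overlapped there, with pre-molt replicate 1 above 2 of the post-molt libraries. The level was 2.82 ± 1.29 CPM pre-molt and 3.77 ± 1.49 CPM post-molt (log2 change 0.42, SE 0.43, adjusted p = 0.608 in edgeR). It was also the only linked peak in which a pre-molt library had a peak call of its own.

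No linked peak was of the promoter class, which in the authors' annotation reaches 3000 bp from a start site. The linked peaks nearest to the GRM7 start site began 4444 bp upstream and 7717 bp downstream. A promoter-class peak was linked to 12536 genes, which is 70.0% of all linked genes. The start site of GRM7 therefore gave no peak to compare between the stages.

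The first intron held 3 linked peaks, of which 2 were called higher. The first of these peaks, 7.82 kb into the gene (5215531 to 5215730), held 8, 11 and 16 reads pre-molt and 30, 41 and 38 reads post-molt. The post-molt libraries lay close together and above all pre-molt libraries. Levels were 0.937 ± 0.399 and 3.0 ± 0.359 CPM (log2 change 1.68, SE 0.54), and the edgeR adjusted p of 0.0507 just missed the threshold. It passed without pre-molt replicate 3 (log2 change 2.06, adjusted p = 0.0493 in edgeR). With any other library left out it did not pass, at edgeR adjusted p of 0.0816 to 0.147.

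The second intron 1 peak, 9.73 kb into the gene (5213515 to 5213923), held 15, 10 and 17 reads pre-molt and 36, 104 and 19 reads post-molt. Most of its post-molt reads came from post-molt replicate 2, and post-molt replicate 3 was close to the highest pre-molt library. It rose from 1.13 ± 0.396 to 4.29 ± 3.46 CPM (log2 change 1.93, SE 0.55, adjusted p = 0.0263 in edgeR). Without post-molt replicate 2 the log2 change was 1.05 (adjusted p = 0.42 in edgeR). The call was also lost without pre-molt replicate 1, 2 or 3, with adjusted p of 0.0714, 0.124 and 0.0679 in that order.

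The third intron 1 peak, 14.12 kb into the gene (5209204 to 5209456), was the emptiest of the linked peaks before the molt, with 1, 3 and 9 reads. It held 29, 73 and 35 reads in the post-molt libraries. The lowest post-molt library had more than the highest pre-molt library by a wide margin. It rose from 0.358 ± 0.374 to 3.72 ± 1.77 CPM (log2 change 3.38, SE 0.67, adjusted p = 0.00302 in edgeR), and the call held when any 1 library was left out.

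The exonic peaks lay in exons 2 and 3, near the 5' end of the gene. The exon 2 peak, 14.78 kb into the gene (5208554 to 5208771), held 13, 12 and 5 reads pre-molt and 25, 48 and 49 reads post-molt. Here post-molt replicates 2 and 3 were alike and post-molt replicate 1 was lower, still above every pre-molt library. The peak rose from 0.777 ± 0.315 to 3.34 ± 1.04 CPM (log2 change 2.09, SE 0.55, adjusted p = 0.0172 in edgeR). The call was lost without post-molt replicate 2, post-molt replicate 3 or pre-molt replicate 3, with adjusted p of 0.0732, 0.0962 and 0.0676 in that order.

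The exon 3 peak, 24.0 kb into the gene (5199234 to 5199654), held 17, 24 and 13 reads pre-molt and 32, 70 and 36 reads post-molt. The stages did not overlap. Levels were 1.40 ± 0.275 and 3.76 ± 1.53 CPM (log2 change 1.42, SE 0.46), and the edgeR adjusted p of 0.0522 missed the threshold. Without post-molt replicate 1 the adjusted p was 0.0491, and without post-molt replicate 2 it was 0.342.

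Intron 7 held the 2 linked peaks farthest into the gene, and both rose. The peak 31.19 kb into the gene (5192028 to 5192485) held 20, 16 and 17 reads pre-molt and 61, 254 and 84 reads post-molt. The pre-molt libraries were alike, while post-molt replicate 2 stood far above the other post-molt libraries. It rose from 1.41 ± 0.259 to 10.8 ± 8.07 CPM, which was 7.64-fold (log2 change 2.93, SE 0.47, adjusted p = 0.000629 in edgeR).

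The peak 34.08 kb into the gene (5189214 to 5189514) held 7, 4 and 6 reads pre-molt and 21, 139 and 53 reads post-molt. The 3 post-molt libraries were spread widely, and the lowest of them was still above all pre-molt libraries. It rose from 0.457 ± 0.155 to 5.73 ± 4.71 CPM, the highest fold among the linked peaks at 12.5 (log2 change 3.64, SE 0.60, adjusted p = 0.000789 in edgeR). Both intron 7 peaks kept their call when any 1 library was left out.

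The way peaks entered the table bears on these counts. A merged peak exists where at least 1 library had a MACS2 peak call, and 8 of the 9 linked peaks had calls in post-molt libraries only, against 25.8% of all merged peaks. A peak with post-molt calls only is in part fixed in its direction by how it entered the table. Of the 26953 merged peaks of that kind, 19.0% were called higher, 39.9% had all post-molt libraries above all pre-molt libraries, and their median log2 change was 0.83. The 6 called GRM7 peaks are to be read against the 19.0%. The linked peak that had calls in both stages was the one 4.66 kb upstream, which did not pass.

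Of the linked peaks, 4 rested on the peak call of a single library, so each was tested again without that library. The log2 change stayed positive in all 4, and the other post-molt libraries were above every pre-molt library in all 4. No share of all single-library merged peaks with this arrangement was computed. Counting also the peaks inside the gene model but linked to the next gene, described below, 9 peaks rested on a single library. Without that library all 9 were positive, 6 had this arrangement and 1 was called higher. The peak 14.12 kb into the gene kept its call without post-molt replicate 2 (log2 change 2.92, SE 0.78, adjusted p = 0.0321 in edgeR). The peaks at 7.82, 9.73 and 24.0 kb did not pass, with adjusted p of 0.147, 0.42 and 0.342. For comparison, the 10021 merged peaks called in post-molt replicate 2 alone had a median log2 change of 0.47 without that library, 77.9% of them were positive and 2.14% were called higher. For the peak at 7.82 kb, which rested on post-molt replicate 3, the matching 6191 merged peaks had a median of 0.20, with 62.9% positive and 1.65% called higher.

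The peak lists of the single libraries were also read at these positions. At the linked peaks, the pre-molt libraries had 1, 0 and 0 peak regions and the post-molt libraries 3, 8 and 5. Every post-molt library had more regions than any pre-molt library, and the means differed by 5. This is a description with no test, since the merged peaks exist through these calls and 8 of the 9 had no pre-molt call. The lists and the read counts also come from the same reads.

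**Figure D2:**
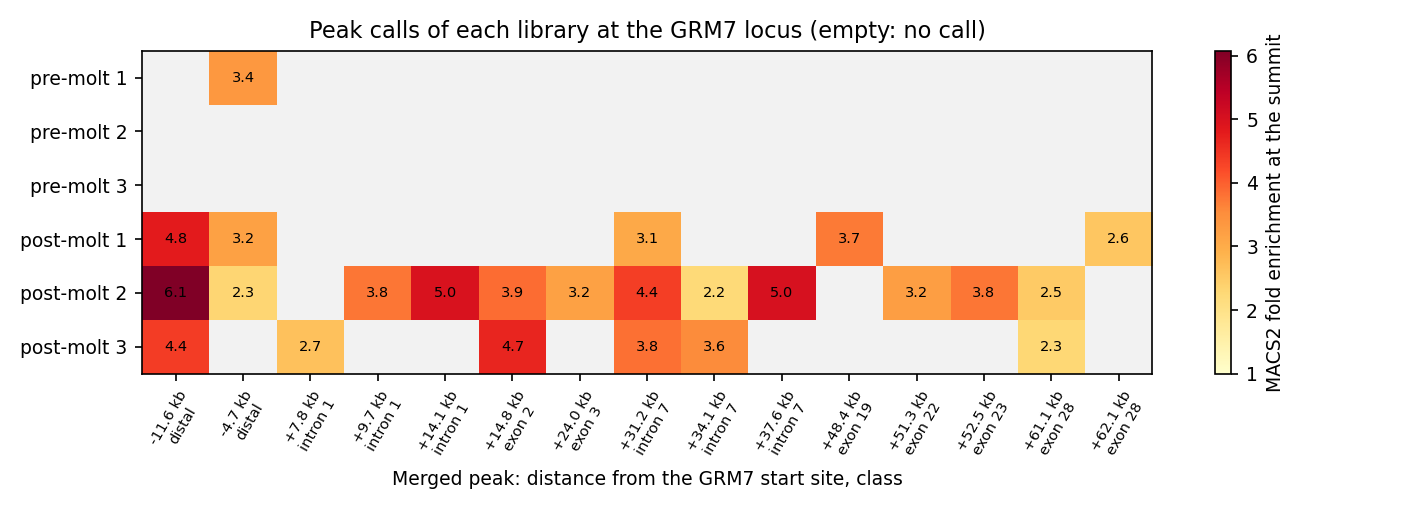
MACS2 fold enrichment at the summit for each library (rows) and each merged peak linked to GRM7 or inside its gene model (columns, by distance from the start site); grey cells had no peak call. The pre-molt rows hold 1 call, 4.66 kb upstream, and the row of post-molt replicate 2 holds 12.

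The peak 11.6 kb upstream and the intron 7 peak at 31.19 kb were called in all 3 post-molt libraries. At the former, fold enrichment at the summit was 4.80, 6.08 and 4.38 in post-molt replicates 1, 2 and 3, and at the latter 3.05, 4.37 and 3.82. The single pre-molt call, in pre-molt replicate 1 at the peak 4.66 kb upstream, had a fold enrichment of 3.36 and a -log10 q of 3.88. The post-molt calls in that peak were no stronger, at 3.20 in post-molt replicate 1 and 2.32 in post-molt replicate 2.

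More of the gene carried peaks than the links show. The gene model of GRM7 holds 13 merged peaks, and the table links 6 of them (46.2%) to the next gene, evm.TU.CM024146.1.115, whose start site is nearer. Such a mismatch was found for 8316 of 26211 exonic or intronic peaks (31.7%). Of the 6 peaks, 3 were called higher, 0 lower and 3 did not pass, and all 6 had a positive log2 change. None of the 6 had a pre-molt peak call.

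**Figure D3:**
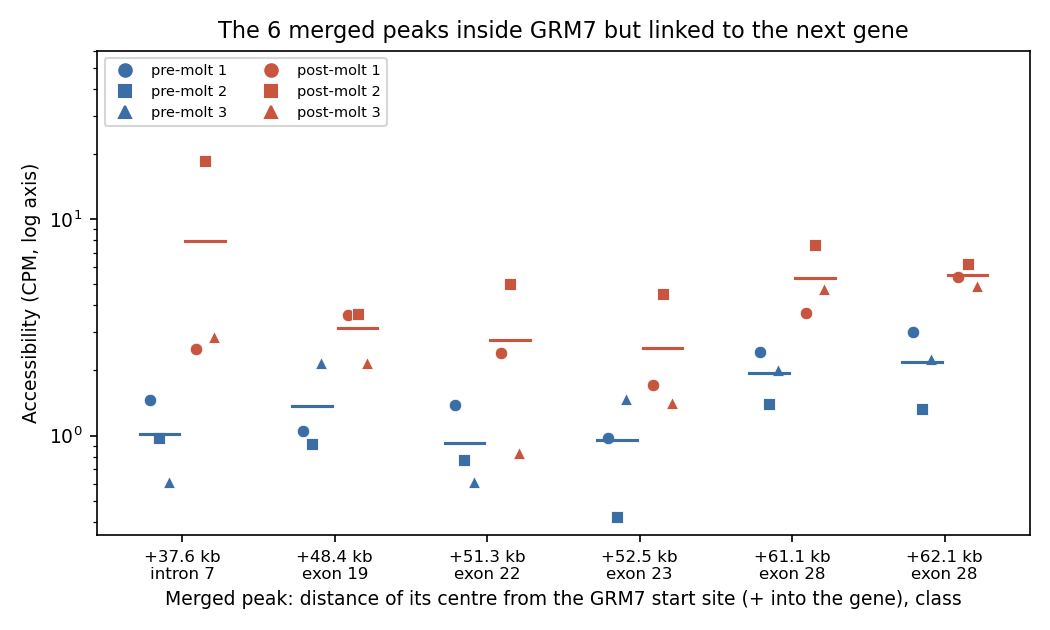
CPM (log axis) of each library at the 6 merged peaks inside the GRM7 gene model that the table links to the next gene. Symbols and bars are as for the linked peaks; post-molt replicate 2 is the highest library at all 6.

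The first of them lies in intron 7, 37.63 kb into the gene (5185594 to 5186036), and held 18, 14 and 7 reads pre-molt and 29, 235 and 34 reads post-molt. The stages did not overlap, but post-molt replicate 2 alone made up most of the post-molt reads. It rose from 1.02 ± 0.427 to 7.95 ± 9.16 CPM (log2 change 2.96, SE 0.62, adjusted p = 0.0041 in edgeR). Without post-molt replicate 2 the log2 change was 1.38 (adjusted p = 0.236 in edgeR), and without pre-molt replicate 3 the adjusted p was 0.0508.

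Exon 28, near the 3' end, held 2 of the called peaks. The one 61.12 kb into the gene (5162143 to 5162519) held 30, 20 and 23 reads pre-molt and 43, 96 and 57 reads post-molt. It rose from 1.94 ± 0.519 to 5.34 ± 2.00 CPM (log2 change 1.46, SE 0.41, adjusted p = 0.0264 in edgeR), with no overlap of the stages. The one 62.1 kb into the gene (5161194 to 5161508) held 37, 19 and 26 reads pre-molt and 63, 79 and 59 reads post-molt. Its post-molt libraries lay close together and above all pre-molt libraries, and it rose from 2.20 ± 0.838 to 5.53 ± 0.656 CPM (log2 change 1.33, SE 0.40, adjusted p = 0.0349 in edgeR). Both calls depended on single libraries. The first was lost without post-molt replicate 2 (adjusted p = 0.196) or 3 (0.0527), or pre-molt replicate 2 (0.0987) or 3 (0.0854). The second was lost without any 1 library other than pre-molt replicate 1, with adjusted p of 0.0663 to 0.13.

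The exonic peaks in between did not pass, and their stages overlapped. In exon 19 (5174928 to 5175198) the counts were 13, 13 and 25 reads pre-molt and 42, 46 and 26 post-molt (log2 change 1.19, adjusted p = 0.145 in edgeR). In exon 22 (5172008 to 5172329) they were 17, 11 and 7 pre-molt and 28, 64 and 10 post-molt (log2 change 1.58, adjusted p = 0.127 in edgeR). The exon 22 peak passed without post-molt replicate 3, at an edgeR adjusted p of 0.0475. Without post-molt replicate 2, its log2 change was 0.81 (adjusted p = 0.625 in edgeR). In exon 23 (5170831 to 5171077) they were 12, 6 and 17 pre-molt and 20, 57 and 17 post-molt (log2 change 1.42, adjusted p = 0.176 in edgeR).

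Over all 13 peaks of the gene model, 8 were called higher and 0 lower, the median log2 change was 1.68, and all post-molt libraries were above all pre-molt libraries at 10. All 13 had peak calls in post-molt libraries only, the kind of merged peak of which 19.0% were called higher and 39.9% had stages that did not overlap in that direction. Post-molt replicate 2 was the highest of the 6 libraries at 12 of the 13. It was the highest at 18.8% of all merged peaks and at 45.5% of those called in post-molt libraries only.

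Summed over the linked peaks, GRM7 had 153, 137 and 129 reads pre-molt and 319, 919 and 406 reads post-molt. As CPM these were 13.1, 8.89 and 10.7 against 27.6, 73.3 and 35.6, so the stages did not overlap. Post-molt replicate 2 gave 55.9% of the 1644 post-molt reads. The log2 change of the sum was 2.06 (SE 0.32, adjusted p = 0.00141 in edgeR over 17908 linked genes), and without post-molt replicate 2 it was 1.54 (adjusted p = 0.000858 in edgeR). Of all linked genes, 11.0% were called, 6.9% higher and 4.11% lower, and 16.7% had all post-molt libraries above all pre-molt libraries. A larger log2 change was found for 100 genes. The sum holds 8 peaks that entered the table through post-molt calls only.

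With the sum taken over the 13 peaks of the gene model, CPM was 17.8, 10.6 and 15.6 pre-molt and 39.7, 104 and 45.3 post-molt. The stages again did not overlap. The mean rose from 14.7 ± 3.72 to 63.1 ± 35.7 CPM (log2 change 2.11, SE 0.34, adjusted p = 0.00157 in edgeR). This sum adds the 6 peaks and leaves out the 2 upstream peaks. All 13 of its peaks had post-molt calls only, so its direction is in part fixed by how they entered the table. Post-molt replicate 2 held 1306 of its reads, against 459 and 517 in post-molt replicates 1 and 3. The sum was not tested without that library. With the 6 peaks added to the 9 linked ones, the log2 change was 1.93 (adjusted p = 0.00222 in edgeR).

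The share of reads in the in-gene peaks was compared with that in the upstream peaks. In-gene peaks held 52.9%, 58.4% and 64.3% of the linked reads pre-molt and 73.4%, 79.3% and 77.3% post-molt. The share was higher in every post-molt library than in any pre-molt library. It differed by 18.1 percentage points, given with no test, since all 7 in-gene peaks had post-molt calls only. The upstream peak at 11.6 kb, with a log2 change of 1.79, lay within the range of the in-gene peaks (1.42 to 3.64), and the one at 4.66 kb, with 0.42, lay below it. With near peaks taken as those within 10 kb of the start site in place of the in-gene peaks, the difference in share turned to -17.8 percentage points.

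The flanking genes were taken as background, 5 linked genes on each side with 36 linked peaks. Of these peaks 5 were called higher and 1 lower, and 3 of the 5 higher ones were the peaks inside the GRM7 model described above. The shares over all merged peaks were 6.08% higher and 3.86% lower. The count of 6 calls fell to 0 without post-molt replicate 2 or pre-molt replicate 3, and to 3 without post-molt replicate 1 or pre-molt replicate 2. Outside the model, there were 30 peaks, with 2 higher, 1 lower and a median log2 change of 0.31. Their changes ranged from -1.54 to 1.60, while 7 of the 13 peaks inside the model were above 1.60. The sets differ in how they entered the table: all 13 had no pre-molt call, against 8 of the 30. Mean counts reached 75.3 reads inside the model and 403.8 outside it. How far this moved the comparison was not tested.

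**Figure D4:**
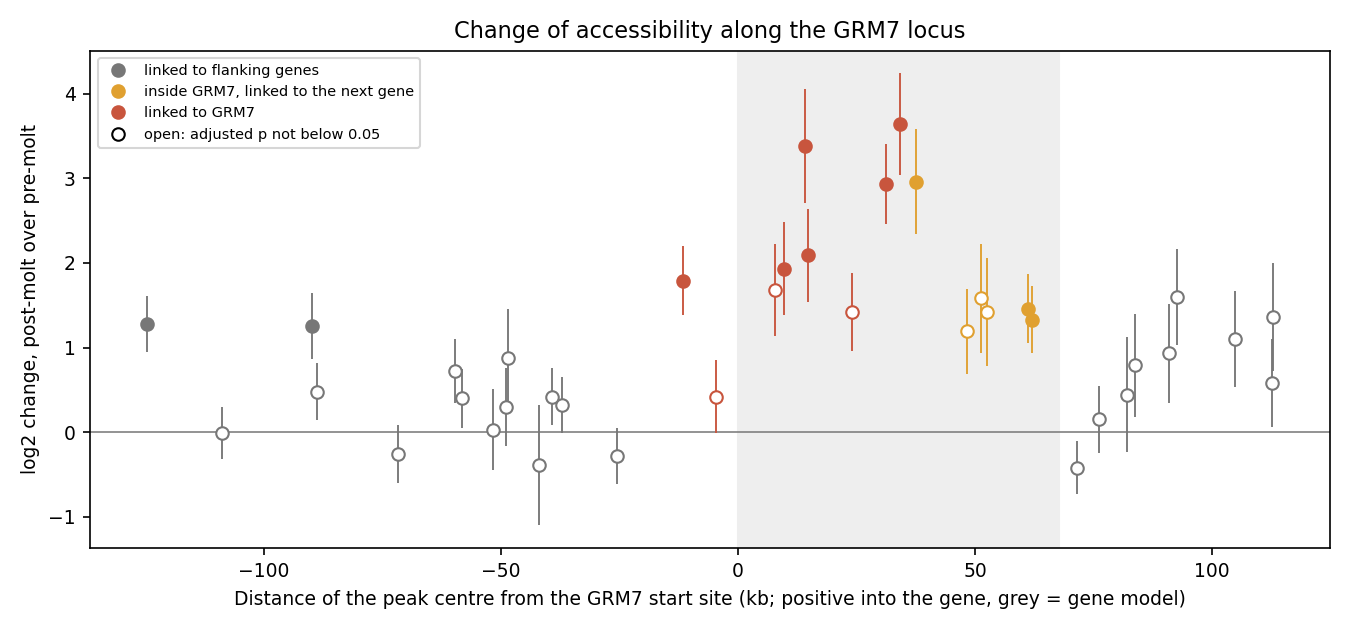
log2 change (post-molt over pre-molt, with its SE) of merged peaks around GRM7, by the distance of the peak centre from its start site in kb, with the gene model in grey. Filled points had an edgeR adjusted p below 0.05; the peaks inside GRM7 and the one 11.6 kb upstream carry most filled points, and the flanking peaks in the plotted window lie between -0.42 and 1.60, those farther away not being drawn.

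The called flanking peaks outside the model lay far from GRM7. A promoter peak of evm.TU.CM024146.1.110 (4901907 to 4902499) fell, with 64, 48 and 74 reads pre-molt and 18, 21 and 23 post-molt (log2 change -1.54, SE 0.41, adjusted p = 0.0188 in edgeR). A promoter peak linked to evm.TU.CM024146.1.122 (5313078 to 5313449) rose, with 65, 28 and 30 reads pre-molt and 82, 126 and 77 post-molt (log2 change 1.25, SE 0.39, adjusted p = 0.0454 in edgeR). A distal peak linked to evm.TU.CM024146.1.123 (5347521 to 5348612) rose, with 105, 264 and 156 reads pre-molt and 425, 474 and 294 post-molt (log2 change 1.28, SE 0.33, adjusted p = 0.0166 in edgeR).

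Summed over their linked peaks, 0 of the 10 flanking genes were called by edgeR, DESeq2 or limma-trend, and 4 had an unadjusted edgeR p below 0.05. Over all linked genes 11.0% were called by edgeR, so a count of 0 among 10 is near that share. On the side of the GRM7 3' end, the log2 change was -0.87 for evm.TU.CM024146.1.110, -0.81 for evm.TU.CM024146.1.112, -0.45 for evm.TU.CM024146.1.113, -0.10 for evm.TU.CM024146.1.114 and 0.47 for evm.TU.CM024146.1.115. On the side of its start site, it was -0.22 for evm.TU.CM024146.1.117, 0.38 for evm.TU.CM024146.1.120, 0.57 for evm.TU.CM024146.1.121, 0.54 for evm.TU.CM024146.1.122 and 0.58 for evm.TU.CM024146.1.123. Their median was 0.14, against -0.03 over all linked genes. The last of these genes passed without pre-molt replicate 2 (log2 change 0.83, adjusted p = 0.0436 in edgeR), and not with any other library left out.

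The gene beyond the GRM7 3' end, evm.TU.CM024146.1.115, shows what the links decide. With its 15 linked peaks it had 55.5 ± 4.69 CPM pre-molt and 77.2 ± 22.3 post-molt (log2 change 0.47, adjusted p = 0.23 in edgeR). Without the 6 peaks that lie inside GRM7 it had 47.2 ± 7.45 and 49.4 ± 6.67 CPM (log2 change 0.07, SE 0.22, adjusted p = 0.896 in edgeR). Among those other 9 peaks none was called, although 8 had a positive log2 change and the median of the 9 was 0.79. Of the 9, 6 had no pre-molt peak call, and all merged peaks with post-molt calls only had a median of 0.83. How far peak entry moved these 9 changes was not tested. The peak with a negative change, a promoter peak (5151364 to 5152436), held 1405 reads pre-molt and 980 post-molt (log2 change -0.42). It made up a large part of the sum, so the sum says little about the weaker peaks.

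The reads of the linked GRM7 peaks were 7.12%, 4.17% and 5.08% of those of the flanking peaks pre-molt and 10.7%, 23.9% and 15.8% post-molt. All post-molt libraries were above all pre-molt libraries. The log2 ratio differed by 1.58 between the stages, and by 1.56 with the 6 model peaks counted to GRM7. No test is given, since 8 of the 9 linked peaks had post-molt calls only, against 14 of the 36 flanking peaks and 8 of the 30 outside the model. How far this difference in peak entry moved the ratio was not tested.

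**Figure D5:**
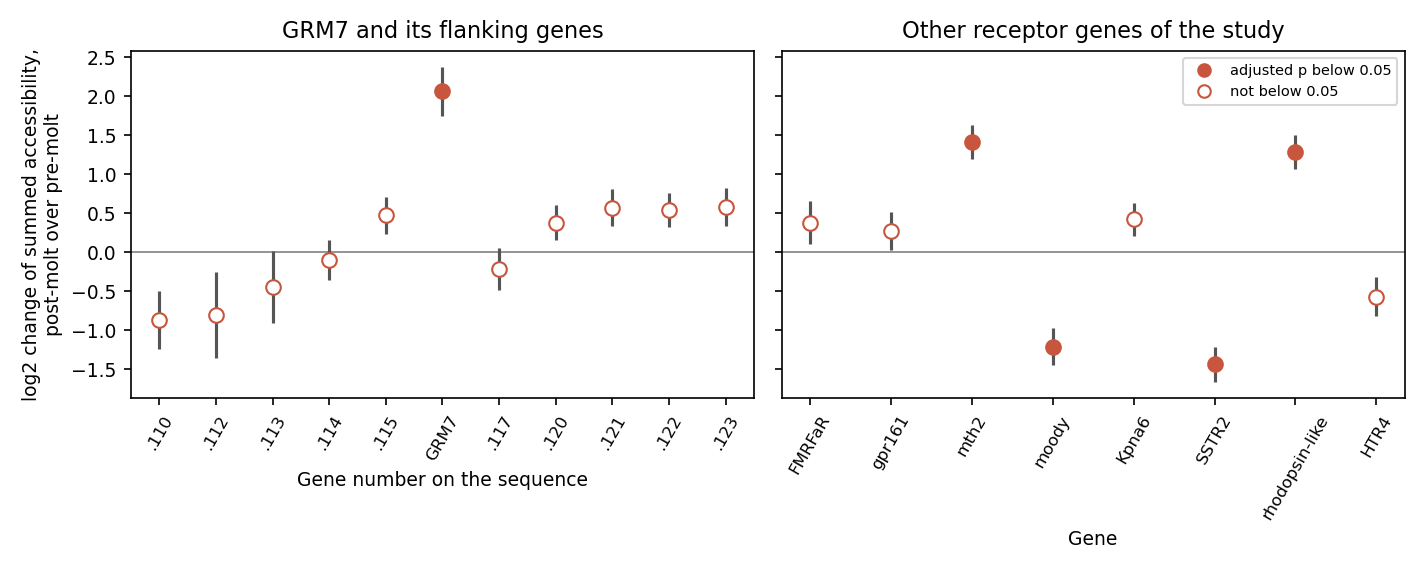
log2 change (post-molt over pre-molt, with its SE) of accessibility summed over linked peaks, for GRM7 and the 5 linked genes on each side (left) and for 8 other receptor genes of the study (right). GRM7 is at 2.06, and the flanking genes are between -0.87 and 0.58.

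Other receptor genes of the study did not share 1 direction. Of 8 genes, 2 were called higher, 2 lower and 4 did not pass, with a median log2 change of 0.33. Over all linked genes 6.9% were called higher and 4.11% lower, with a median of -0.03. The methuselah-type receptor mth2 (log2 change 1.41, adjusted p = 0.00141 in edgeR) and a rhodopsin-like receptor gene (1.28, adjusted p = 0.0023 in edgeR) were higher. The genes moody, which acts in the glial barrier of flies (-1.21, adjusted p = 0.00601 in edgeR), and SSTR2, named for a somatostatin receptor (-1.44, adjusted p = 0.00141 in edgeR), were lower.

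Those that did not pass were FMRFaR, named for a neuropeptide receptor (log2 change 0.38), gpr161 (0.27), Kpna6, named for an importin (0.42), and HTR4, named for a serotonin receptor (-0.57). None of the 8 log2 changes was as large in size as that of GRM7. The study chose GRM7 and these genes in comparisons of adjacent stages that used the post-molt libraries, the pre-molt libraries or both, so neither the calls nor this order is independent evidence.

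Among 6987 genes with at least 5 linked peaks, the 5 whose summed log2 CPM followed GRM7 most closely over the 6 libraries were evm.TU.CM024099.1.70 (Pearson r 0.9996), evm.TU.CM024108.1.61 (0.9988), evm.TU.CM024127.1.250 (0.9976), evm.TU.CM024122.1.9 (0.9972) and evm.TU.CM024102.1.181 (0.9964). They lie on other sequences of the genome. In evm.TU.CM024099.1.70, CPM was 7.88, 5.0 and 6.32 pre-molt and 17.1, 47.7 and 21.3 post-molt, with post-molt replicate 2 highest as in GRM7. Such agreement over 6 libraries was common, with r above 0.9 for 552 of the genes (7.9%), and all genes share the libraries and their depth.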

How the data were processed

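The authors' deposited table gives whole-number read counts of 6 libraries in merged peaks, with a link from each peak to a gene. Per the submitters' processing notes, BWA and MACS2 were used. The sources used here do not give how lists were merged, how reads were counted, or whether a Tn5 shift was made. The deposited RPM values were made by the authors from count plus 1 and gave the library totals. The deposited fold enrichment, a ratio of RPM per base over a uniform background, served one alternative with a pseudocount of 1. Each deposited MACS2 list gives a fold enrichment and a -log10 q-value per summit, and summits of 1 region were collapsed. Columns with the authors' own fold change, p-value and q-value compare the stages and were not used. The numbers in the names of single peaks differ from those of the sample titles, and the titles were followed.

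Counts of all 104657 merged peaks, and counts summed over the linked peaks of each gene, were tested with edgeR 4.0.16 (R 4.3.3), using the quasi-likelihood test with TMM factors and Benjamini-Hochberg adjustment at 0.05, and without a filter on low counts. The script was tested on simulated data. SEs were derived from the log2 change and its F statistic. Shares, ratios and peak regions per library are described without a p, because most GRM7 peaks entered the table through post-molt calls. The exact permutation tests planned for them can give no p below 0.1. The study's methods name DESeq2, and DESeq2 1.42.0 and limma 3.58.1 were alternatives, beside other scalings, a filter on low counts, the replicate block and leaving out each library. Python 3.11.15 with pandas 2.3.3, numpy 2.4.6 and matplotlib 3.10.9 was used for the rest. Chi-square over degrees of freedom between libraries of a stage was 5.66 to 18.6, so all were counted separately. PCR copies may be among the reads.

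All linked peaks and the 5 linked genes on each side were described, with every flanking peak that was called outside the gene model, 8 of the study's other receptor genes (1 more gene is not reported here), and the 5 genes with the highest correlation with GRM7 (log2 CPM, prior count 2). The peaks inside the gene model but linked elsewhere were added after the data were seen. The gene, the lists and the tests were chosen with earlier results of these data known. No genome sequence was used here.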

Additional observations from a re-analysis of the deposited data

How the results depend on the processing

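The number of linked GRM7 peaks called was 5 to 7 under every scaling, filter and test tried, and 3 to 7 when 1 library was left out, the lowest without post-molt replicate 2. The calls of the peaks at 14.12, 31.19 and 34.08 kb held under all 15 alternatives. The summed log2 change of GRM7 kept its call under all 16, from 1.19 for peaks within 10 kb of the start site (adjusted p = 0.0452) to 2.32 without post-molt replicate 1. All alternatives used the same merged peaks, and 8 of the 9 linked ones had post-molt calls only. They therefore cannot test the effect of how peaks entered the table. The number of flanking peaks called was 0 to 5 when 1 library was left out, and 3 without the peaks inside the GRM7 gene model, an alternative chosen after seeing the data. With peaks within 10 kb as near in place of in-gene peaks, the near share of linked reads differed by -17.8 percentage points. Under this setting, 4 of the in-gene peaks called higher count as far, and the peak 4.66 kb upstream counts as near. The log2 ratio of GRM7 over the flanking peaks was 1.24 to 1.87, and the receptor list had 4 calls in each of 14 alternatives. Median centring moved the median log2 change of all merged peaks from -0.03 to -0.16 and the summed change of GRM7 to 1.94.

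The replicate numbers did not pair the libraries, since the deviations of same-numbered libraries correlated at -0.0881, -0.1038 and -0.0328. With the replicate block, 6 linked peaks, 6 flanking peaks and 4 receptor genes were called, the summed log2 change of GRM7 was 1.95 (edgeR adjusted p = 7.06e-06), and the log2 ratio over the flanking peaks was 1.58.

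Depth limits the weakest peaks: with 1 to 9 reads in a pre-molt library, the fold change at 14.12 kb is imprecise.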
